A study of Pan troglodytes with 8 samples.

Results

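PHGDH, PSAT1, PSPH, SHMT1, SHMT2, MTHFD1, MTHFD2, TYMS and ASNS encode enzymes that make serine, pass its carbon into the folate cycle, make thymidylate for DNA, and make asparagine. These 9 genes were chosen by name and read from the 60583 named rows of a read count table on the chimpanzee genome. All 9 had a row there and in a matching table on the human genome, which served as a check. On the chimpanzee genome 8 of the 9 passed the filter on low counts and were tested, and SHMT1 was at 0 reads in every library.

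The data are bulk RNA-seq of 4 populations sorted from cerebral organoids grown from SandraA, an induced pluripotent stem cell line of a chimpanzee (Pan troglodytes). Organoids were collected at week 8, within 3 days either side, and each population had 2 libraries made from 10000 cells each. The populations were N (neurons positive for BCL11B, a transcription factor of deep-layer projection neurons), bIP (basal intermediate progenitors, which mostly divide into neurons), bRG (basal radial glia, stem cells detached from the ventricular surface) and aRG (apical radial glia, the stem cells lining it). All groups come from the same line and carry no genetic change or drug treatment that the labels name, so they describe 1 chimpanzee line in culture. Because the labels do not tie the 2 libraries of a population to separate cultures, the p-values reflect only how these libraries differ among themselves, and that difference may be technical.

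Cells make serine from the glycolytic intermediate 3-phosphoglycerate in 3 steps, catalysed in order by PHGDH, PSAT1 and PSPH. Serine hydroxymethyltransferases, cytosolic SHMT1 and mitochondrial SHMT2, split serine into glycine and a carbon unit carried by folate, and MTHFD1 in the cytosol and MTHFD2 in mitochondria change the oxidation state of that unit. Thymidylate synthase, TYMS, uses the folate-bound carbon to make the DNA building block dTMP, and purine rings take up such carbon units as well. Dividing cells draw on all of these products. In brain, PHGDH is known as a gene of radial glia and astrocytes, and neurons are known to take up serine made by glia. ASNS, with PHGDH, PSAT1, PSPH, SHMT2 and MTHFD2, is a known target of ATF4, the transcription factor of the amino acid response.

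Library totals were 24649971 to 33245892 counts on the chimpanzee genome. Sums of marker genes followed the labels: 9 neuron markers summed to 5850 to 6150 CPM (read counts scaled to library size) in N, 8 intermediate progenitor markers to 3520 to 4630 in bIP, and 8 radial glia markers to 2010 to 2180 in bRG and 3110 to 3320 in aRG. The neuron markers also summed to 2580 to 2630 CPM in bIP, where RBFOX3 and SLC17A6 were higher than in N. PENK, on the intermediate progenitor list, was not raised in bIP, at 1.05 and 1.38 CPM against 1.46 and 3.6 in aRG. All 10 choroid plexus markers were at or above 1 CPM in both aRG libraries, and 6 of them in both libraries of N, of bIP and of bRG. Their sum was 50.2 to 73.8 CPM in N, 86.1 to 87.1 in bIP and 88.4 to 91.9 in bRG, against 999 in aRG replicate 1 and 3330 in aRG replicate 2. TTR made up most of the aRG sums, at 819 CPM in replicate 1 and 3090 in replicate 2. CLIC6, FOLR1, AQP1, HTR2C and KL were also higher in aRG replicate 2, while KCNJ13, TRPM3, OTX2 and IGFBP7 were higher in aRG replicate 1. The 10 mesenchyme, vessel and immune markers summed to 23.9 to 44.7 CPM in N, 140 to 155 in bIP and 299 to 359 in bRG, against 401 in the first aRG library and 2040 in the second. AIF1, a microglial marker on that list, was at 0 in all 8 libraries on the chimpanzee genome, where a row at 0 need not mean an absent transcript. Thus aRG replicate 2 had the highest sums on these 2 lists, though not in each marker, and aRG replicate 1 was also raised in choroid plexus markers. Its astrocyte (107 CPM) and oligodendrocyte lineage (19.6) sums were 84.4 and 15 in aRG replicate 1. The interneuron and pluripotent sums of aRG replicate 2 were 5.48 and 9.46 CPM. They were not the highest, with 16.8 for interneuron markers in bIP replicate 2 and 17.2 for pluripotent markers in bRG replicate 2. Fits without aRG replicate 2 cannot test the part of choroid plexus cells, because aRG replicate 1 also summed to 999 CPM of their markers. The part of other cells in the results below was not tested.

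PHGDH, PSAT1, SHMT2 and TYMS were lower in neurons than in radial glia, and no member rose in any of the 6 comparisons. Over the 4 populations edgeR called a difference for 3 of the 8 members tested, namely PHGDH, PSAT1 and TYMS, against 7.62% of all genes tested (adjusted p under 0.05). With the replicate number as a block the count was 4, with SHMT2 added, against 12.4% of all genes. In N against aRG 4 members fell, namely PHGDH, PSAT1, SHMT2 and TYMS, against 4.8% of all genes tested that were lower. Without aRG replicate 2 the SHMT2 log2 fold change was −0.85, against −1.80 in the full fit. The same 4 members fell in N against bRG, where 3.39% of all genes were lower. In bIP against aRG PHGDH and PSAT1 fell, where 1.5% of all genes were lower, and in bIP against bRG PHGDH alone fell, where 0.574% were lower. PHGDH was also the only member that fell in N against bIP, where 1.48% of all genes were lower. The median log2 fold change of the 8 members was −1.05 in N against aRG, where that of all genes tested was −0.08. It was −0.73 in bIP against aRG, where that of all genes was 0.05. These comparisons share libraries and are not independent of each other, and in bulk libraries fewer cells of a type and less RNA per cell cannot be told apart.

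Between bRG and aRG no member passed. The edgeR count was 0 of 8, where 0.00283% of all genes were called, with 0 members at an unadjusted p under 0.05 and 0 by DESeq2, which called 0.435% of all genes. The log2 fold changes of bRG over aRG ran from −0.73 for TYMS (95% interval −2.23 to 0.77) to 0.34 for ASNS (−0.33 to 1.01). PHGDH differed by −0.30 (−0.92 to 0.31) and PSAT1 by −0.29 (−0.96 to 0.38).

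**Figure D1:**
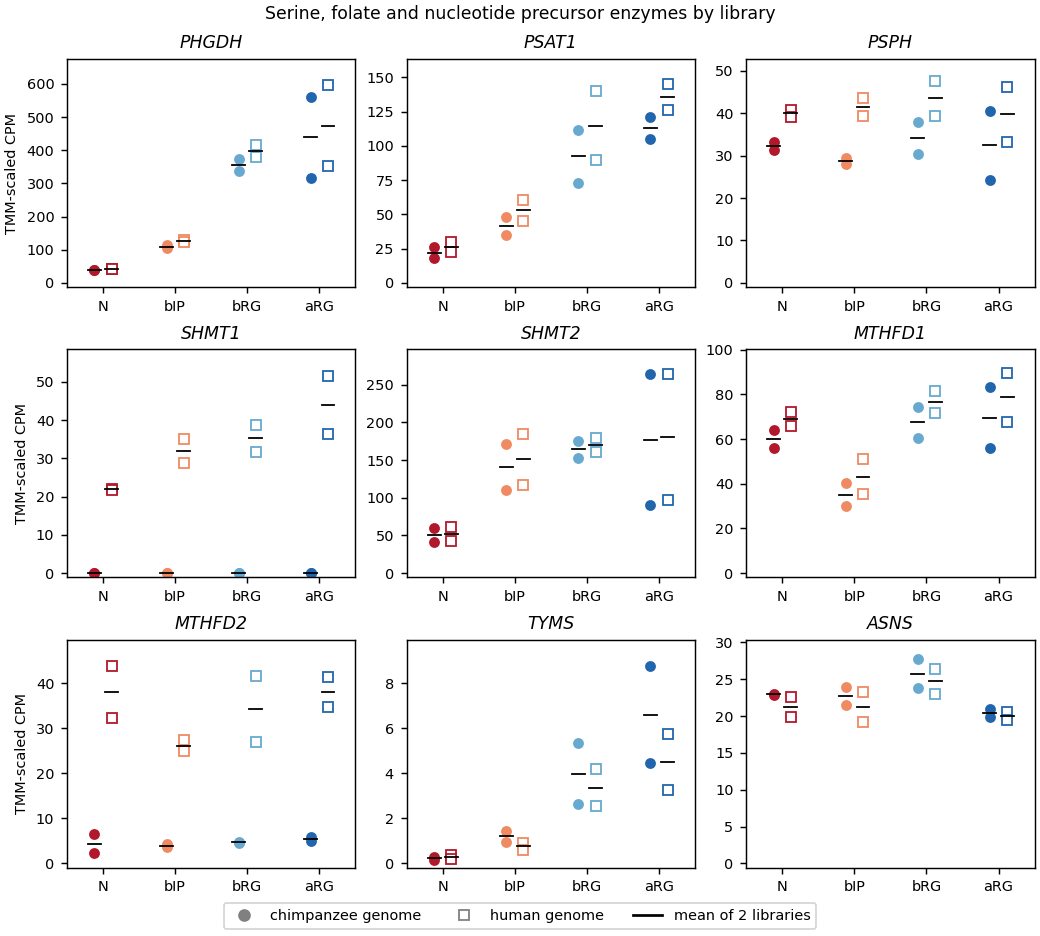
Level of each enzyme gene in every library (TMM-scaled CPM, a linear axis for each gene) in N, bIP, bRG and aRG. Filled circles are counts on the chimpanzee genome, open squares counts of the same libraries on the human genome, and bars the mean of 2 libraries; PHGDH and PSAT1 step down in N and bIP, SHMT1 is at 0 on the chimpanzee genome, and MTHFD2 is lower there than on the human genome.

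PHGDH, which commits 3-phosphoglycerate to serine, showed the steepest pattern of the 3 serine synthesis genes. Its level in TMM-scaled CPM, where TMM is the trimmed mean of M values, was 40.0 and 39.7 in N, 114 and 105 in bIP, 338 and 373 in bRG, and 315 and 562 in aRG. The N libraries lay below those of bIP, and these below all 4 radial glia libraries, while the bRG values fell inside the range of aRG. The mean was 39.8 ± 0.197 in N and 439 ± 175 in aRG (SD, n = 2 each), and the highest population mean was 11 times the lowest. PHGDH fell by 3.46 on the log2 scale in N against aRG (SE 0.31, edgeR adjusted p = 3.09e-05) and fell by 3.16 in N against bRG (SE 0.31, adjusted p = 8.23e-05). In bIP it fell by 2.00 against aRG (SE 0.29, adjusted p = 0.00308) and fell by 1.7 against bRG (SE 0.29, adjusted p = 0.0175). In N against bIP it fell by 1.46 (SE 0.29, adjusted p = 0.0188). Without either bIP library the bIP against bRG call was lost (adjusted p = 0.077 without bIP replicate 1 and 0.136 without bIP replicate 2), and the N against bIP call was lost when any of its 4 libraries was left out (0.0553 to 0.0907).

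PSAT1, the aminotransferase of the second step, followed the same order at smaller folds. It was at 25.9 and 18.3 CPM in N, 48.0 and 34.7 in bIP, 112 and 73.2 in bRG, and 105 and 121 in aRG. The 4 radial glia libraries lay above all bIP libraries and those above all N libraries, with bRG and aRG overlapping. PSAT1 fell by 2.35 in N against aRG (SE 0.32, adjusted p = 0.000559), fell by 2.06 in N against bRG (SE 0.32, adjusted p = 0.00253) and fell by 1.45 in bIP against aRG (SE 0.31, adjusted p = 0.0269). The last call did not hold without aRG replicate 2 (adjusted p = 0.108), bIP replicate 1 (0.0562) or bIP replicate 2 (0.229). In bIP against bRG its log2 fold change was −1.16 (adjusted p = 0.137, and 0.0196 with the replicate number as a block), and in N against bIP −0.90 (adjusted p = 0.181, and 0.0461 with the block).

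PSPH, the phosphatase of the last step, did not share this pattern. It had 33.3 and 31.4 CPM in N, 29.5 and 28.0 in bIP, 30.5 and 38.0 in bRG, and 24.3 and 40.6 in aRG. The aRG libraries spanned all other values. Its log2 fold change in N against aRG was −0.01 (95% interval −0.71 to 0.70), an interval that does not reach that of PHGDH (−4.13 to −2.79) or of PSAT1 (−3.06 to −1.64) in the same fit. The highest population mean of PSPH was 1.19 times the lowest. PSPH overlaps the chaperonin gene CCT6A in RefSeq genes of another chimpanzee assembly, and reads of overlapping genes cannot be told apart in these unstranded libraries. CCT6A was at 15.4 ± 3.5 CPM in N and 11.4 ± 1.46 in aRG (SD, n = 2 each), which did not pass the test (adjusted p = 0.587). Its chimpanzee row held 2889 reads against 26078 on the human genome, so it is no sound measure of that gene. A row for PSPHP1, a pseudogene copy of PSPH, held reads equal to 15.1% of those of PSPH.

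**Figure D2:**
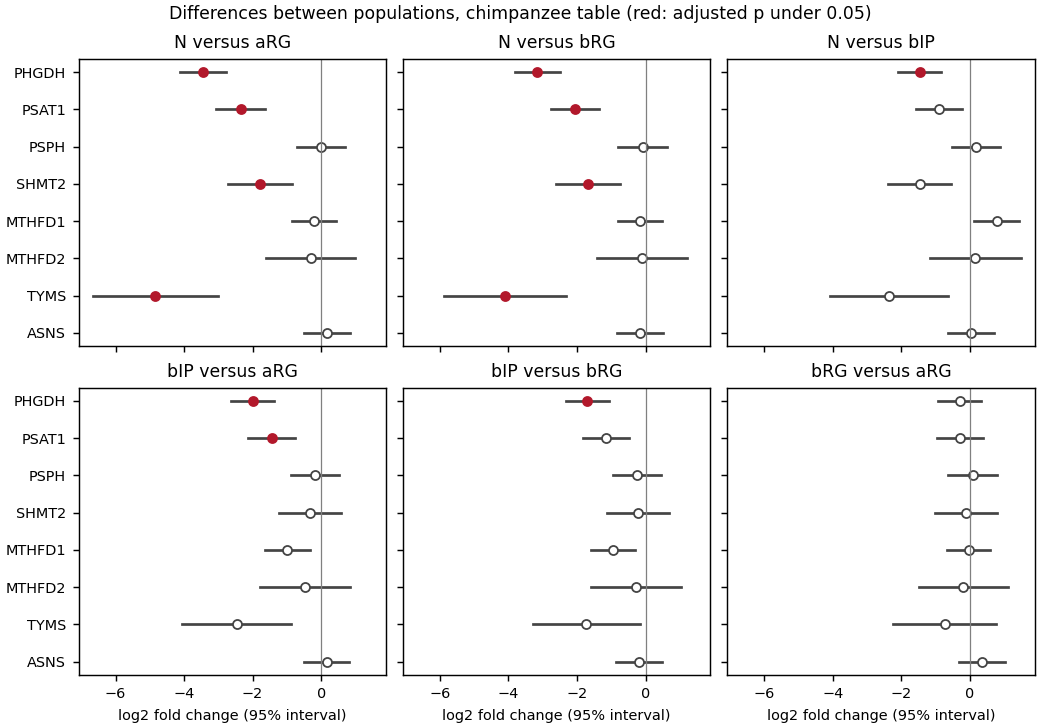
Log2 fold change of the 8 tested members in each of the 6 comparisons, first-named population over the second, with 95% intervals from the edgeR fit; filled red points passed an adjusted p of 0.05. The interval of PHGDH lies wholly left of 0 in the 5 comparisons other than bRG against aRG, while the intervals of PSPH, MTHFD2 and ASNS include 0 in every panel.

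SHMT2, the mitochondrial serine hydroxymethyltransferase, was lowest in the neurons. It was at 60.4 and 41.8 CPM in N, 111 and 172 in bIP, 153 and 176 in bRG, and 90.6 and 264 in aRG. The N libraries lay below the other 6, and the ranges of bIP, bRG and aRG overlapped. SHMT2 fell by 1.80 in N against aRG (SE 0.43, adjusted p = 0.0191) and fell by 1.69 in N against bRG (SE 0.43, adjusted p = 0.0382). These calls rested on single libraries. Without aRG replicate 2, the library with the highest sums of choroid plexus and mesenchyme markers, the N against aRG value was −0.85 (adjusted p = 0.221). Without N replicate 2 it was −1.56 (adjusted p = 0.107), and the N against bRG value −1.45 (adjusted p = 0.184). Within replicate numbers, on the log2(CPM + 1) scale, N against aRG differed by −0.58 in number 1 and −2.63 in number 2. In N against bIP the log2 fold change was −1.47 (adjusted p = 0.105, and 0.0383 with the replicate number as a block). The test over all 4 populations at once gave SHMT2 an adjusted p of 0.0776 with edgeR, of 0.0252 with the block and of 0.00571 with DESeq2.

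SHMT1, the cytosolic isozyme, had no read in any library on the chimpanzee genome, where 3 reads would be 0.0884 to 0.129 CPM. On the human genome the same libraries held 3647 SHMT1 reads, at 22.0 and 21.8 CPM in N, 28.7 and 35.2 in bIP, 31.8 and 38.8 in bRG, and 36.3 and 51.6 in aRG. The row at 0 is thus no measure of an absent transcript. On the human table SHMT1 fell by 1.01 in N against aRG (SE 0.30, adjusted p = 0.0388), where 9.59% of all genes were lower and 5 of 9 members fell. In N against bRG its log2 fold change was −0.69 (adjusted p = 0.171). The N libraries lay below the other 6, as for SHMT2. The bRG range overlapped those of bIP and of aRG, while bIP lay below aRG. For SHMT2 the aRG range instead held those of bIP and bRG.

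The ratio of the mitochondrial to the cytosolic isozyme was formed within each library, which removes library scaling. On the human table the log2 ratio of SHMT2 to SHMT1 reads was 1.46 and 0.97 in N, 2.03 and 2.39 in bIP, 2.34 and 2.21 in bRG, and 1.41 and 2.36 in aRG. N replicate 1 was above aRG replicate 1, so the neuron and radial glia values overlapped. Over the 4 libraries of N and bIP it averaged 1.71 ± 0.62, against 2.08 ± 0.45 over the 4 of bRG and aRG (SD). The difference of −0.36 did not pass a two-sided exact permutation test (p = 0.371, n = 4 each, smallest possible p 0.0286). Because this test pools N with bIP, it cannot decide whether N alone differs. Gene lengths are part of these ratios, so they rank libraries and not the isozymes.

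**Figure D3:**
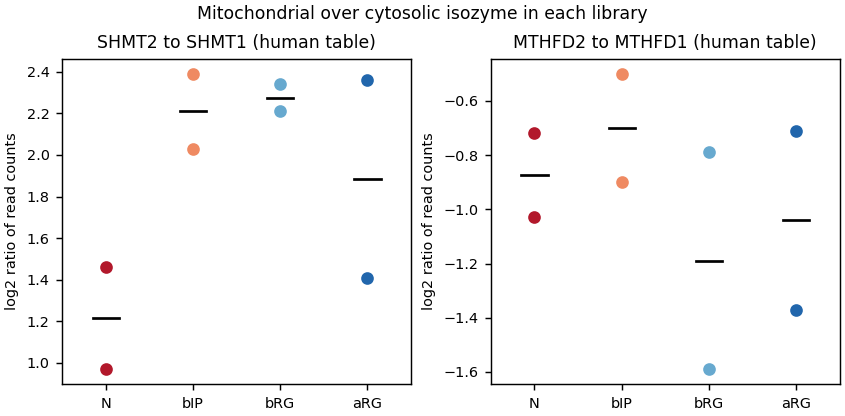
Log2 ratio of reads of the mitochondrial over the cytosolic isozyme in each library on the human genome, for SHMT2 to SHMT1 (left) and MTHFD2 to MTHFD1 (right), in N, bIP, bRG and aRG; bars are means of 2 libraries. SHMT2 to SHMT1 is 1.46 and 0.97 in N, and the ranges of the populations overlap for MTHFD2 to MTHFD1.

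MTHFD1, a cytosolic enzyme with 3 activities on folate-bound carbon, was lowest in the intermediate progenitors and not in the neurons. It had 64.3 and 56.1 CPM in N, 40.2 and 29.9 in bIP, 60.6 and 74.5 in bRG, and 55.9 and 83.4 in aRG. Both bIP libraries lay below the other 6, whose ranges overlapped. The log2 fold change of bIP over aRG was −0.99 (95% interval −1.64 to −0.34, adjusted p = 0.12, and 0.0449 with the replicate number as a block). In bIP against bRG it was −0.95 (adjusted p = 0.234) and in N against bIP 0.78 (adjusted p = 0.226), so neither passed. N against aRG differed by −0.21 (−0.85 to 0.43). MTHFD1 overlaps ZBTB25, a zinc finger gene, which was at 51.3 ± 6.12 CPM in N, 45.9 ± 15.8 in bIP, 47.6 ± 3.32 in bRG and 44.4 ± 1.32 in aRG (SD, n = 2 each).

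MTHFD2, the mitochondrial dehydrogenase and cyclohydrolase, did not pass in any comparison on either genome. It was at 6.53 and 2.24 CPM in N, 3.65 and 4.21 in bIP, 4.86 and 4.63 in bRG, and 5.03 and 5.84 in aRG. The N libraries spanned every other value. On the human genome its levels were 43.9 and 32.2 CPM in N, 27.4 and 24.9 in bIP, 41.5 and 26.9 in bRG, and 41.4 and 34.7 in aRG, and N against aRG differed by 0.00 on the log2 scale (95% interval −0.69 to 0.69). The chimpanzee row held 1045 reads over the 8 libraries, and 7 pseudogene rows of MTHFD2 held reads equal to 51.6% of it, so its level on the chimpanzee genome is uncertain. The log2 ratio of MTHFD2 to MTHFD1 on the chimpanzee genome averaged −3.54 ± 0.77 in N and bIP together and −3.73 ± 0.23 in bRG and aRG together (SD, n = 4 each). The difference of 0.19 did not pass an exact permutation test (p = 0.629), nor did that of 0.33 on the human table (p = 0.286).

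TYMS, thymidylate synthase, had the largest fold change and the fewest reads of the 8 members tested on the chimpanzee genome. Its read counts were 4 and 7 in N, 25 and 36 in bIP, 81 and 169 in bRG, and 113 and 297 in aRG. This was 0.155 and 0.302 CPM in N, 0.971 and 1.42 in bIP, 2.63 and 5.32 in bRG, and 4.44 and 8.76 in aRG. The N libraries lay below those of bIP, and these below all radial glia libraries, while bRG and aRG overlapped. TYMS fell by 4.84 in N against aRG (SE 0.84, adjusted p = 0.00264) and fell by 4.1 in N against bRG (SE 0.82, adjusted p = 0.0107), and the second call was lost without N replicate 1 (adjusted p = 0.063). In bIP against aRG its log2 fold change was −2.46 (adjusted p = 0.114, and 0.0485 with the replicate number as a block). In N against bIP it was −2.37 (adjusted p = 0.162). The human table gave smaller folds, with TYMS at 0.388 and 0.176 CPM in N, 0.915 and 0.593 in bIP, 2.53 and 4.19 in bRG, and 3.27 and 5.73 in aRG. There N against aRG was −3.94 (adjusted p = 0.0108), N against bRG −3.52 (adjusted p = 0.0268) and N against bIP −1.38 (adjusted p = 0.435). ENOSF1, which lies within 5 kb of TYMS in RefSeq genes of another chimpanzee assembly, fell by 1.66 in N against aRG (SE 0.48, adjusted p = 0.0482), with 5.49 ± 2.13 CPM in N and 17.4 ± 6.73 in aRG (SD, n = 2 each). LOC107969451, a long noncoding RNA gene, overlaps TYMS in the same RefSeq genes. Whether reads of ENOSF1 or LOC107969451 enter the TYMS row was not tested.

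ASNS, asparagine synthetase, was the flattest member along with PSPH. It had 22.9 and 23.0 CPM in N, 23.9 and 21.5 in bIP, 27.7 and 23.8 in bRG, and 20.9 and 19.9 in aRG. The aRG libraries were lowest, and N lay within the range of bIP. The log2 fold change was 0.17 in N against aRG (95% interval −0.49 to 0.84) and 0.02 in N against bIP (−0.65 to 0.69), and its highest population mean was 1.26 times the lowest. Pseudogene rows of ASNS held reads equal to 23.6% of those of the gene.

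The 2 genome tables gave the same calls for the 8 members tested on both. Over 10680 shared genes with at least 1000 reads on the human genome, the median ratio of chimpanzee to human reads was 1.82. PHGDH (1.89), PSAT1 (1.7), PSPH (1.62), SHMT2 (2.01) and MTHFD1 (1.81) lay near it. MTHFD2 was at 0.286, with 4.82% of those genes at or below this ratio, and SHMT1 was at 0, as were 293 of them (2.74%). At the high end ASNS was at 2.19, with 95.8% of those genes at or below this ratio, and TYMS at 2.8 (99.1%). The TYMS ratio ran from 0.8 to 5.14 between libraries, on 732 chimpanzee and 261 human reads.

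**Figure D4:**
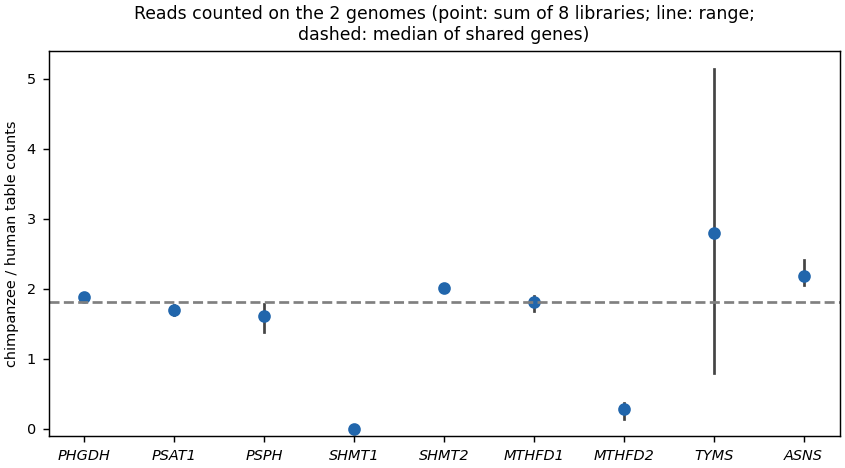
Reads on the chimpanzee genome divided by reads of the same libraries on the human genome for each member; points are ratios of sums over 8 libraries, lines the range over libraries, and the dashed line the median of shared genes, 1.82. SHMT1 (0) and MTHFD2 (0.286) lie far below the line, and TYMS has the widest range.

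Most other genes of serine, glycine and folate metabolism did not pass. Of 16 tested genes of serine and glycine metabolism outside the members, 1 rose and 2 fell in N against aRG. Over all genes tested, 4.87% rose and 4.8% fell in that comparison, so a single rise on a list of this size is near the background. SFXN3, a member of the sideroflexin family of mitochondrial carriers, of which SFXN1 carries serine, was at 313 ± 39.6 CPM in N and 51.5 ± 10.1 in aRG (SD, n = 2 each), and rose by 2.60 on the log2 scale (SE 0.32, edgeR adjusted p = 0.000285). It was also the only gene of this list called in bIP against aRG, at 1.80 (adjusted p = 0.00874). SDSL, related to serine dehydratase, fell by 1.79 and CTH, which makes cysteine from cystathionine, fell by 1.82 in N against aRG.

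Of 19 tested genes of the folate cycle and folate uptake, 5 fell and 1 rose in N against aRG, with a list median of −0.10 against −0.08 over all genes. ALDH1L1, which oxidises 10-formyltetrahydrofolate and is also an astrocyte marker, was at 1.56 ± 0.744 CPM in N and 31.9 ± 16.1 in aRG (SD, n = 2 each) and fell by 4.34 (SE 0.52, adjusted p = 0.000206). MTHFD1L, the mitochondrial formate-releasing enzyme, fell by 1.29 (adjusted p = 0.0293), and FOLR1, a folate receptor that is also a choroid plexus marker, fell by 6.18 (adjusted p = 0.00951). FOLR1 was at 0.116 and 0.0863 CPM in N and at 4.52 and 10.9 in aRG, with the higher value in the library with the highest sum of choroid plexus markers. The folate carrier SLC19A1, named after its values were seen, fell by 1.77 (adjusted p = 0.0488).

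Purine and pyrimidine synthesis genes showed few calls. Of 13 purine genes 1 rose and 1 fell in N against aRG: IMPDH1, of guanine nucleotide synthesis, was at 112 ± 15.0 CPM in N and 52.2 ± 6.51 in aRG (log2 fold change 1.10, adjusted p = 0.0283), and PRPS2, which makes the ribose donor, was at 2.94 ± 3.18 in N and 16.9 ± 2.13 in aRG (−2.52, adjusted p = 0.0475). GART, a purine ring enzyme that uses folate-bound carbon, was at 147 and 158 CPM in N, 83.8 and 83.2 in bIP, 129 and 125 in bRG, and 123 and 113 in aRG. As with MTHFD1, its bIP libraries were the lowest, and N against bIP gave 0.87 (adjusted p = 0.0774). Of 6 pyrimidine genes edgeR called 0 in N against aRG, with 1 at an unadjusted p under 0.05 and 1 called by DESeq2. On the human table edgeR called 1 of 5 lower, CTPS1 (−1.24, adjusted p = 0.0362), where 9.59% of all genes were lower. Of 8 methionine cycle genes 1 fell, MAT2B, a regulatory subunit of S-adenosylmethionine synthetase (−1.51, adjusted p = 0.0115).

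Of 12 tested genes of deoxynucleotide supply outside the members, 4 fell and 0 rose in N against aRG, and 3 fell in bIP against aRG. RRM2, the cell-cycle-regulated subunit of ribonucleotide reductase, was at 1.28 and 1.99 CPM in N, 35.0 and 66.9 in bIP, 178 and 231 in bRG, and 287 and 289 in aRG. It fell by 7.46 in N against aRG (SE 0.44, adjusted p = 1.88e-06) and fell by 2.5 in bIP against aRG (SE 0.34, adjusted p = 0.00212). RRM1, its partner, had log2 fold changes of −1.40 in N and −1.32 in bIP against aRG, and DTYMK, which phosphorylates the TYMS product, of −1.24 in N and −1.23 in bIP. TK1, the salvage route to the same product, fell by 3.61 in N against aRG.

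**Figure D5:**
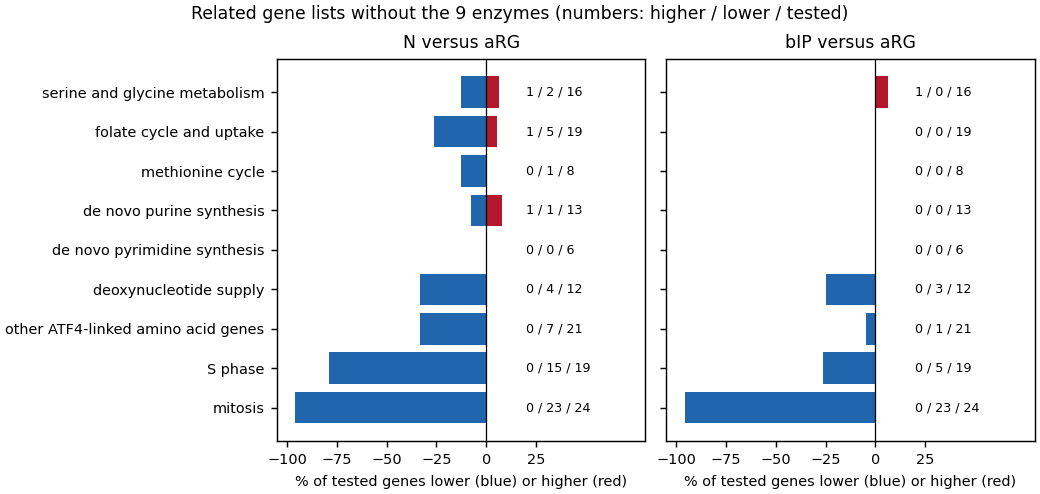
Share of tested genes of 9 related lists that were lower (blue, to the left) or higher (red, to the right) in N against aRG and in bIP against aRG by edgeR at an adjusted p of 0.05; numbers give genes higher, lower and tested. The mitosis (23 of 24) and S phase (15 of 19) lists hold the largest shares lower in N, and the serine, folate, methionine and purine lists far smaller ones.

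Cell division genes moved along the same order of populations. In N against aRG 15 of 19 S phase genes and 23 of 24 mitosis genes fell, and in bIP against aRG 5 and 23. Summed S phase levels were 489 and 389 CPM in N, 629 and 809 in bIP, 1050 and 1500 in bRG, and 1110 and 1690 in aRG. PHGDH equalled 8.18% and 10.2% of that sum in N, 18.2% and 13.0% in bIP, 32.3% and 24.8% in bRG, and 28.3% and 33.3% in aRG. On this measure the 4 radial glia values lay above those of bIP and N. Set against the mitosis sum the order differed: PHGDH equalled 18.7% and 26.9% of it in N, 20% and 13.8% in bIP, 12.3% and 14.6% in bRG, and 4.7% and 9.99% in aRG, with aRG lowest. TYMS equalled 0.0316% and 0.0777% of the sum in N, 0.154% and 0.175% in bIP, 0.251% and 0.355% in bRG, and 0.4% and 0.518% in aRG, without overlap between N, bIP and the radial glia. Against the mitosis sum TYMS equalled 0.0723% and 0.204% in N, 0.17% and 0.186% in bIP, 0.0957% and 0.208% in bRG, and 0.0662% and 0.155% in aRG. There aRG lay below bIP, and all other pairs of populations overlapped. PSAT1 equalled 5.31% and 4.72% of the S phase sum in N, 7.64% and 4.29% in bIP, 10.7% and 4.88% in bRG, and 9.4% and 7.19% in aRG. On this measure N lay below aRG, and all other pairs of populations overlapped. MTHFD1 was highest in N relative to the S phase sum, at 13.1% and 14.4% in N, 6.4% and 3.69% in bIP, 5.8% and 4.97% in bRG, and 5.03% and 4.93% in aRG. The summed mitosis levels were 214 and 148 CPM in N, 571 and 762 in bIP, 2740 and 2560 in bRG, and 6710 and 5630 in aRG, while PHGDH overlapped between bRG and aRG. The part of cell division in the members' differences was not tested.

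Of 21 tested genes linked to ATF4 and amino acid supply outside the members, 7 fell and 0 rose in N against aRG, with a list median of −0.67. The list has 22 genes, of which SESN2 was listed at 0 in every library on the chimpanzee genome. On the human genome SESN2 averaged 23.5 ± 1.16 CPM in N, 35.2 ± 4.99 in bIP, 55.5 ± 5.68 in bRG and 52.6 ± 15.5 in aRG (SD, n = 2 each). TRIB3, a pseudokinase induced by ATF4, was at 6.41 ± 0.397 CPM in N, 7.49 ± 1.09 in bIP, 35.8 ± 5.49 in bRG and 26.5 ± 10.8 in aRG (SD, n = 2 each), and fell by 2.05 in N against aRG (SE 0.39, adjusted p = 0.00497) and fell by 1.82 in bIP against aRG (SE 0.39, adjusted p = 0.0243). SLC7A11, the cystine importer, fell by 3.29 in N against aRG, SLC1A5, a glutamine transporter, fell by 3.55, and DDIT3, a stress transcription factor, fell by 2.08. The mRNA of ATF4 itself differed by −0.67 (adjusted p = 0.214). Among the members known as ATF4 targets, PHGDH, PSAT1 and SHMT2 fell in the same comparison, while PSPH, MTHFD2 and ASNS did not pass.

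Between bRG and aRG edgeR called 0 of the 138 list genes tested, with 24 at an unadjusted p under 0.05 and 6 called by DESeq2. The mitosis list, with a median of −1.15 and 22 of its 24 genes at an unadjusted p under 0.05, held all 6 DESeq2 calls.

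The genes whose levels over the 8 libraries were most like each member were ranked by Pearson's r of log2(CPM + 1) among 10280 genes with a mean of at least 10 CPM. The libraries of a population share their sort, so these values describe the order of populations. PHGDH was nearest to LRRC17 (r = 0.994), PTGFRN (0.994) and the Wnt receptor FZD8 (0.992). FZD8 was at 1.93 and 1.55 CPM in N, 8.78 and 12.4 in bIP, 66.5 and 80 in bRG, and 80.7 and 112 in aRG. PSAT1 was nearest to INTS4 (0.99), the receptor tyrosine kinase AXL (0.99) and PRC1 (0.989), a midzone protein of dividing cells, and TYMS to SFRP2 (0.992), RSPO2 (0.987) and the histone chaperone ASF1B (0.987). SHMT2 was nearest to UEVLD (0.963), MTHFD1 to PDAP1 (0.964), MTHFD2 to POLR2G (0.957) and PSPH to FDXR (0.962). ASNS had the lowest best match, ATXN2L (0.882). Among the members, PHGDH went with PSAT1 (r = 0.963) and TYMS (0.965) over the same 8 libraries, and less with PSPH (0.239) and ASNS (−0.0871).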

How the data were processed

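Whole-number read counts per gene were deposited by the authors, 1 table per genome for the same 8 libraries. The submitters' processing notes name STAR and the builds panTro6 (chimpanzee, here the main table) and hg38 (human, here a check). The STAR version, the gene models, the counter and its treatment of strand were not given in the sources used here. Per the labels' protocols, cDNA was made by a Smart-seq2 workflow with 12 to 17 PCR cycles, which marks no strand and uses no molecular identifiers, so limits from counts cover counting error only. Totals were 24649971 to 33245892 counts on panTro6 and 11635116 to 16447389 on hg38. A row without a gene name (0.00545% to 0.00771% of counts) was left out.

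Genes were filtered with filterByExpr, which left 35382 on panTro6 and 16353 on hg38, and scaled by TMM. All 8 libraries entered 1 quasi-likelihood fit with population as the term (edgeR 4.0.16, R 4.3.3), which leaves 4 residual degrees of freedom. Tests were two-sided, with Benjamini-Hochberg adjustment over all genes tested and a threshold of 0.05; standard errors came from the F statistic, and the common coefficient of variation was 0.629 on panTro6. Alternatives were DESeq2 1.42.0, its size factors in the edgeR fit, no filter on low counts, hg38, halved counts, a replicate block, a fit of only the compared populations, and leaving out each library. The fit was tested on simulated counts.

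The isozyme ratio of each library added 1 count to both genes. The design assumed panTro6 for both ratios; because SHMT1 is at 0 there, SHMT2 to SHMT1 was taken from hg38.

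Libraries of the same replicate number were treated as paired in the replicate block only, and the main fit left this pairing out. Library names run on within a number. Deviations from the population means, matched by number, correlated in all 6 pairs of populations (r = 0.123 to 0.266). RefSeq genes of another assembly (NHGRI_mPanTro3-v2.0) were used only for neighbouring genes. All 9 members are named, with up to 4 genes per list with the smallest adjusted p for any population difference and the 3 genes most like each member. The members and lists were chosen with earlier results of these data known, so they give no independent support to patterns already seen there. Values of some genes on the folate list are not reported here.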

Additional observations from a re-analysis of the deposited data

How the results depend on the processing

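The 12 calls of single members between populations (PHGDH 5, PSAT1 3, SHMT2 2 and TYMS 2) held with DESeq2, with its size factors, without the low-count filter, on the human table, with halved counts and with the replicate block, and 11 held with only the 2 populations fitted, the exception being SHMT2 in N against aRG (adjusted p = 0.0592). The count of members called moved by over 1.5 times in 3 comparisons. In bIP against aRG it was 2 (1.5% of all genes lower), and 3 with DESeq2 (3.99%). It was 3 without the filter and 4 with the replicate block (3.15%). Without the filter 2159 genes were called there in either direction, against 1002 in the main fit. In bIP against bRG it was 1 (0.574% of all genes lower), and 2 with DESeq2 (3.23%). It was also 2 without the filter and with the replicate block (1.66%). Without the filter 1187 genes were called there in either direction, against 365 in the main fit. In N against bIP it was 1 (1.48% of all genes lower), and 3 with DESeq2 (4.93%). It was 2 without the filter and 3 with the replicate block (2.9%). Smaller shifts were from 3 (7.62% of all genes) to 4 over any population with DESeq2 (16.3%), without the filter and with the block (12.4%). Without the filter 4649 genes were called over any population, against 2695 in the main fit. In N against aRG the count went from 4 (4.8% of all genes lower) to 5 on the human table (9.59%), where SHMT1 is tested. With only the 2 populations fitted it was 3, where 2584 genes were called in either direction, against 3421 in the main fit. The block changed 5 calls between populations and that of SHMT2 over any population, given beside the results, and no other call. Leaving out a library gave 3 to 4 members called over any population, in N against bRG and in N against aRG, and 0 in bRG against aRG. Over all genes, DESeq2, no filter and the block called more: in N against aRG 3421 genes were called, against 5303, 4526 and 4960, in N against bIP 900, against 2577, 2264 and 2165, and in bRG against aRG 1, against 114, 215 and 39. The difference in the SHMT2 to SHMT1 ratio ran from −0.59 to −0.12 over the fits leaving out a library, and that of MTHFD2 to MTHFD1 from −0.05 to 0.55. With the block their permutation p was 0.5 and 0.722, with no p below 0.0556 possible. TYMS rests on 4 and 7 reads in N. The cause of these shifts was not tested.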

Other observations

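SHMT1 was not alone at 0 on the chimpanzee genome. Of its 20 nearest protein-coding genes with a row in the human table, taken in the order of RefSeq genes of another chimpanzee assembly, 9 were at 0 reads in all 8 libraries on the chimpanzee genome. They formed an unbroken run on 1 side of SHMT1. In that order they were SMCR8, TOP3A, MIEF2, FLII, LLGL1, ALKBH5, MYO15A, EVPLL and DRG2, and on the human genome the same libraries held 16811 reads of the topoisomerase gene TOP3A, 13562 of the RNA demethylase gene ALKBH5, 10415 of FLII and 6873 of DRG2. The next gene, GID4, had 4236 reads on the chimpanzee genome and 2335 on the human genome. On the other side USP22 had 45974 and 21688. Among the neighbours of the other members, 4 were at 0 near PSPH, 1 each near PHGDH, PSAT1 and MTHFD2, and 0 near SHMT2, MTHFD1, TYMS and ASNS. Of the neighbours at 0, those with at least 1000 reads on the human genome numbered 8 near SHMT1, 2 near PSPH, 1 near PHGDH, and 0 near PSAT1 and MTHFD2. Genes in such a run cannot be read as unexpressed from the chimpanzee table.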
